A study of Mus musculus with 12 samples.

Results

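The 32 genes described here encode proteins that carry a cell from G2 through chromosome segregation to cytokinesis: mitotic cyclins and kinases, the spindle checkpoint, kinetochore and passenger proteins, kinesins and the machinery of the cleavage furrow. They were chosen by symbol, and each of the 32 matched 1 row among the 25116 gene rows of a bulk RNA-seq table. The table holds 12 tumours of E0771 cells, labelled as a triple-negative mouse breast cancer line, grown in mammary fat pads and collected at day 22. All host mice were Tie2CreER;ERKi animals on the C57BL/6J background, which carry a tamoxifen-activated Cre recombinase under the Tie2 promoter and an inducible knock-in of endorepellin, the C-terminal fragment of the basement membrane proteoglycan perlecan. Mice of the 7 induced tumours received tamoxifen and mice of the 5 control tumours the control injection, before the tumour cells were injected. The Tie2 promoter is active in endothelial cells and also in some blood cells, and the labels assign the transgenes to the host mice. No tamoxifen-treated host without the knock-in was analysed here, so tamoxifen and endorepellin cannot be told apart. The study asked how endorepellin made by the vasculature affects such tumours, and the mitosis genes bear on how much of the tumour was dividing.

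As background, most genes of this group are transcribed in G2 and mitosis and are held down in resting cells by the MuvB complex, which binds a short promoter element called the cell cycle genes homology region. B-Myb and FoxM1 act through the same complex to switch the genes on, and NF-Y contributes through nearby CCAAT boxes. In a tumour, the summed mRNA of these genes therefore follows how many cells are in cycle and how far through G2 and mitosis they are. In bulk samples, fewer dividing cells and less mitotic RNA per cell cannot be told apart.

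Promoter sequences show what these genes have in common apart from their products. RefSeq promoters on GRCm38.p6, from 250 bases before to 50 bases after each annotated start, were matched by symbol for 26 of the 32 genes, while Ccna2, Foxm1, Tpx2, Aurkb, Incenp and Kif20a had no entry. The homology region core TTTGAA, searched on both strands, was in the window of 19 of the 26 genes (73.1%), against 20.2% of 27025 genes with a promoter in the same table. The letters CCAAT, also on both strands, were in 20 of the 26 (76.9%), against 41.1% of all genes. Both were present in 16 of the 26 (61.5%), against 7.97% of all genes. Overlapping matches were found in 1 gene, Cdca8. Over the 28 windows listed for these genes, among them 2 overlapping ones each for Ect2 and Prc1, 20 of 29 matches to TTTGAA began between 50 bases before and 50 after the start. A match is a run of letters and not a measured binding site.

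The 6 promoters below were picked because their genes span the patterns described further on. Capitals mark TTTGAA and CCAAT or their reverse complements, and positions count the annotated start as 0.
Prc1, chr7:80294201-80294500, plus strand: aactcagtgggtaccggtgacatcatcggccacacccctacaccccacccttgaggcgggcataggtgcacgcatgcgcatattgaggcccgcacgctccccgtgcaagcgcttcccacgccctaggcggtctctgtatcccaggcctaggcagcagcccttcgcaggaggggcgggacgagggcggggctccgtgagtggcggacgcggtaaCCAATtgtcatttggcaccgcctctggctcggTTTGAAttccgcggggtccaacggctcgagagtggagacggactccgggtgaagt
Bub1b, chr2:118597961-118598260, plus strand: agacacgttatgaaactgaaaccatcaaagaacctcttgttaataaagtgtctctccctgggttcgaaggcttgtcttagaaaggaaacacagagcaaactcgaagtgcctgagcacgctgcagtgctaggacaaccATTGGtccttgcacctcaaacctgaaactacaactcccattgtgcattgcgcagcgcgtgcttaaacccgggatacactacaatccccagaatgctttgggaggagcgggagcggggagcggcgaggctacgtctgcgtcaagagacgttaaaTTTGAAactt
Ccnb1, chr13:100786437-100786736, minus strand: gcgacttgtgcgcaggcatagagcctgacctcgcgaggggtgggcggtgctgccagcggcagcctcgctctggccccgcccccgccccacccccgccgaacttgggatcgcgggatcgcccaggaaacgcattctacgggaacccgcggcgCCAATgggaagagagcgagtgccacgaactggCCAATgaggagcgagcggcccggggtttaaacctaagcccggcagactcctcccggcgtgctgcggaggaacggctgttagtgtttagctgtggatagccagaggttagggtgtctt
Ccnb2, chr9:70421505-70421804, minus strand: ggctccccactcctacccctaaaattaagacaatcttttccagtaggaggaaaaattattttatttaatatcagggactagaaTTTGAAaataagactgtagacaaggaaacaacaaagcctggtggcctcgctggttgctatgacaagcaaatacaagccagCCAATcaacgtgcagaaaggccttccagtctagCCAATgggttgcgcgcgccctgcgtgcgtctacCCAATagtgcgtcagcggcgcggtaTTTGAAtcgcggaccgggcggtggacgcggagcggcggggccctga
Cdk1, chr10:69352863-69353162, minus strand: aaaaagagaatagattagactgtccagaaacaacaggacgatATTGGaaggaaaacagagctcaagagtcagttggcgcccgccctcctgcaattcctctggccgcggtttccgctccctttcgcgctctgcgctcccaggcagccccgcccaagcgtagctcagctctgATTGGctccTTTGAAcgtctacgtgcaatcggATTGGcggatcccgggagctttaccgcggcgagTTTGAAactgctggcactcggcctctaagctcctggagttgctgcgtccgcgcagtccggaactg
Birc5, chr11:117848987-117849286, plus strand: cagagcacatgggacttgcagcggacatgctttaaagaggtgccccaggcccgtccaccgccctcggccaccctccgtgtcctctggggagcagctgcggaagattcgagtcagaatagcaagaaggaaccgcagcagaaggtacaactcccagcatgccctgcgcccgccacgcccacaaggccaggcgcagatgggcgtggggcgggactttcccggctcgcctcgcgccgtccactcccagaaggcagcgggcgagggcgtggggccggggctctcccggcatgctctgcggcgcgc
In the Prc1 window CCAAT began at -37 and TTTGAA at -5. Cdk1 held 2 copies of TTTGAA, at -71 and -15, with CCAAT on the opposite strand at -208, -80 and -48. Ccnb2 held CCAAT at -87, -54 and -21 and TTTGAA at -167 and 4. Ccnb1 held CCAAT at -99 and -67 and no TTTGAA. The Birc5 window held neither run of letters.

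Some facts of the whole series touch every value below. Total counts were 18993192 to 28372821 per library, and each mitosis gene had 338 to 16315 counts in every tumour, so all 32 passed the filter on low counts. The epithelial genes Krt8, Epcam and Cdh1 averaged 1.42, 0.68 and 0.70 CPM (counts scaled to a common library size), Krt18 was at 0 in 1 tumour and Pgr, the progesterone receptor, in 7. Thus the defining epithelial markers were near 0 in these tumours, while Erbb2 averaged 31.6 CPM. Perlecan mRNA, Hspg2, was at 536 ± 100.1 CPM in induced and 550.2 ± 81.4 CPM in control tumours (SD, n = 7 and n = 5; log2 fold change -0.04, SE 0.14), and the labels do not say whether it includes reads of the knock-in. Tumours induced 3, induced 4, control 1 and control 2 stood apart from the other 8, and were picked as the 4 highest in Kif20a and Prc1. Their fibroblast markers summed to 1175, 1734, 2645 and 1144 CPM, against 509 to 971 CPM in the others, above all of them. Leukocyte markers summed to 163, 418 and 150 CPM in induced 4, control 1 and control 2, against 31.95 to 112 CPM in the other 8, with induced 3 inside that range at 65.4 CPM. Between the groups, fibroblast markers summed to 509 to 1734 CPM in induced and 643 to 2645 CPM in control tumours, with 5 of 5 fold changes below 0, and leukocyte markers to 31.95 to 163 CPM in induced and 63.2 to 418 CPM in control tumours, with 5 of 5 tested below 0. None of these markers passed an adjusted p of 0.05, and no other gene did. S100a8 and Lum, with log2 fold changes of -1.95 and -2.92, had unadjusted edgeR p-values of 0.00675 and 0.0387. An unadjusted p under 0.05 was seen in 2.13% of all genes tested, and a fold change below 0 in 50.2%. The part of these markers in the values below was not tested. The libraries of induced 3, induced 4, control 1 and control 2 also differed with transcript length: over 11712 genes, the Spearman correlation across genes of exonic length with a gene's deviation from its mean was 0.38, 0.31, 0.30 and 0.36 in these libraries and -0.42 to -0.16 in the others. Each group holds such tumours, 2 of 7 induced and 2 of 5 control.

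The mitosis genes did not differ between induced and control tumours beyond the spread of the tumours. In induced tumours the 32 genes summed to 3344 ± 294 CPM, and in control tumours to 3457 ± 223 CPM (SD, n = 7 and n = 5). The induced sums ran from 2995 CPM in induced 7 to 3777 CPM in induced 3, and the control sums from 3150 CPM in control 4 to 3720 CPM in control 2, so the ranges overlapped widely. None of the 32 genes passed an adjusted p of 0.05 in edgeR's quasi-likelihood test, where 0% of 15199 genes did, and the lowest adjusted p of a mitosis gene was 0.999886. Of the 32 genes, 0 had an unadjusted p under 0.05, against 2.13% of all genes tested. DESeq2 likewise had 0 of 32 there, where 2.44% of all genes lay, and limma-voom had 2, where 6.55% of all genes lay. The induced and control ranges overlapped for all 32 genes, where the ranges of 0.0592% of all genes did not overlap. The fold change was below 0 for 23 genes and above 0 for 9, with a median of -0.05 on the log2 scale, against 50.2% of genes below 0 and a median of -0.0008 over all genes tested. The 32 genes come from the same 12 libraries, so the 23 are not separate observations. In a fit of induced 3 and induced 4 against control 1 and control 2 alone, 13 of the 32 genes were below 0 and the median was 0.03. Without those 4 tumours, 24 genes were below 0 and the median was -0.09. With a term for them in the model, 24 genes were below 0 and the median was -0.05. None of the 32 had an unadjusted p under 0.05 in the fit of the 4 tumours (2.06% of all genes) or in the fit with the term (3.22%). These 3 fits were chosen after seeing the data, from the 4 tumours with the highest Kif20a and Prc1. Whether the direction differs between those 4 and the others was not tested. For 29 of the 32 genes the 95% interval of the fold change lay within 1.5-fold in either direction.

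**Figure D1:**
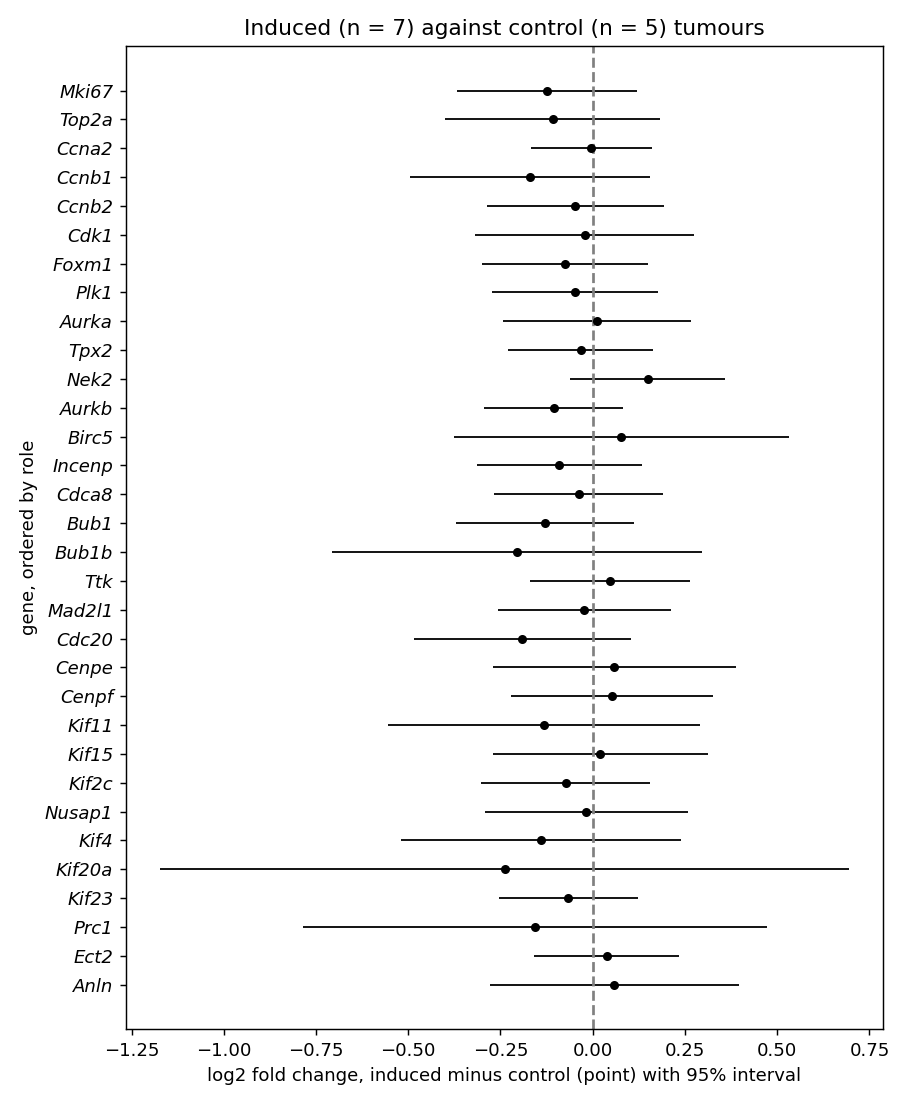
Log2 fold change of each of the 32 mitosis genes, induced minus control, from the edgeR fit (points) with its 95% interval (bars); genes run down the page by role and the dashed line marks no difference. Every interval crosses 0, and the widest is that of Kif20a, from -1.17 to 0.69.

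The proliferation marker and DNA topology genes had lower means in induced tumours, within the spread of each group. Mki67 encodes Ki-67, a coat of mitotic chromosomes used as a marker of cycling cells. It was at 76.5 CPM at the lowest, 106 CPM at the median and 112 CPM at the highest in induced tumours, against 112, 121, 125, 88.4 and 111 CPM in control tumours 1 to 5. The lowest tumours were induced 7 and control 4, and the groups overlapped (log2 fold change -0.13, SE 0.11). Top2a, the topoisomerase that untangles sister chromatids, averaged 412 ± 57.3 CPM in induced and 444 ± 87.5 CPM in control tumours (SD, n = 7 and n = 5). It was highest in control 1, at 566 CPM, and lowest in induced 1, at 338 CPM.

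The 3 mitotic cyclins, Cdk1 and their transcriptional activator Foxm1 did not move as a block. Ccna2, cyclin A2 of S phase and early mitosis, was the steadiest of all 32 genes, at 181 ± 11.9 CPM in induced and 182 ± 13.5 CPM in control tumours (SD, n = 7 and n = 5). Its highest tumour was 1.24 times its lowest, and the 95% interval of its fold change ran from 0.89 to 1.12. Ccnb1, cyclin B1, the partner of Cdk1 at mitotic entry, was at 72.6, 87.7 and 127 CPM at the lowest, the median and the highest in induced tumours. In control tumours 1 to 5 it was at 118, 128, 83.9, 92.9 and 109 CPM. The 4 highest tumours were induced 3, induced 4, control 1 and control 2, as they were for 12% of all genes tested. Control 5, at 109 CPM, lay close below induced 4, at 111 CPM. Ccnb2, cyclin B2, was lowest in control 1, induced 1 and control 2, at 47.9, 50.3 and 51.0 CPM, and highest in control 5, at 70.0 CPM. Cdk1, the mitotic kinase itself, was at 155, 211 and 235 CPM at the lowest, the median and the highest in induced tumours and at 162, 172, 237, 231 and 215 CPM in control tumours 1 to 5. Induced 3, induced 4, control 1 and control 2 were the 4 lowest in Cdk1, as they were for 15.1% of all genes tested. Foxm1, the forkhead activator of G2 genes, averaged 94.6 ± 13.2 CPM in induced and 99.6 ± 8.91 CPM in control tumours (SD, n = 7 and n = 5).

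Among the mitotic kinases, Nek2 had the smallest p of the 32 genes. Nek2, which separates centrosomes, was at 71.7, 82.4 and 95.6 CPM at the lowest, the median and the highest in induced tumours, against 68.0, 73.7, 91.0, 70.0 and 74.1 CPM in control tumours 1 to 5. It was above the control mean in 6 of 7 induced tumours, but control 2, control 3 and control 5 lay inside the induced range (log2 fold change 0.15, SE 0.10, edgeR adjusted p = 0.999886). Without control 3, Nek2 had a log2 fold change of 0.21 and was the 1 mitosis gene with an unadjusted p under 0.05, where 4.29% of all genes lay. Plk1, the polo kinase of mitotic entry and spindle assembly, averaged 71.2 ± 8.82 CPM in induced and 73.6 ± 8.53 CPM in control tumours (SD, n = 7 and n = 5). Aurka, the aurora kinase of centrosomes and spindle poles, averaged 78.0 ± 8.71 CPM in induced and 77.4 ± 13.0 CPM in control tumours. Tpx2, the microtubule protein that activates Aurka, averaged 193 ± 18.8 CPM in induced and 198 ± 18.7 CPM in control tumours. Their fold changes were -0.05 for Plk1, 0.01 for Aurka and -0.03 for Tpx2 on the log2 scale, each smaller than its SE.

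The chromosomal passenger complex, which corrects wrong attachments of chromosomes and later sits at the midzone, held genes that differed in their highest and lowest tumours. Birc5, the survivin subunit, was at 78.7 CPM at the lowest, 123 CPM at the median and 167 CPM at the highest in induced tumours, against 90.5, 81.7, 155, 142 and 111 CPM in control tumours 1 to 5. Its 4 lowest values were those of induced 3, induced 4, control 1 and control 2, as held for 15.1% of all genes tested. Cdca8, borealin, was lowest in the same 4 tumours, between 61.8 CPM in control 2 and 68.2 CPM in control 1. Incenp, the scaffold of the complex, was highest in these 4, between 96.9 CPM in control 2 and 103 CPM in induced 3. They were the 4 highest for 12% of all genes tested. Control 5 lay close below, at 96.4 CPM. Aurkb, the kinase of the complex, averaged 72.0 ± 6.35 CPM in induced and 77.5 ± 7.36 CPM in control tumours (SD, n = 7 and n = 5) and was below the control mean in 6 of 7 induced tumours (log2 fold change -0.11, SE 0.09).

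The spindle checkpoint holds anaphase back until every chromosome is attached, by blocking Cdc20, the activator of the anaphase-promoting complex. Cdc20 was at 70.1, 81.5 and 114 CPM at the lowest, the median and the highest in induced tumours, against 107, 111, 89.8, 88.7 and 109 CPM in control tumours 1 to 5. All 5 control tumours lay within the induced range. Its log2 fold change was -0.19 (SE 0.14, 95% interval -0.49 to 0.10, edgeR adjusted p = 0.999886). Without induced 3, induced 4, control 1 and control 2, Cdc20 had a log2 fold change of -0.29 (SE 0.12, edgeR adjusted p = 0.990), and was the 1 mitosis gene with an unadjusted p under 0.05, where 3.69% of all genes lay. In the 4 tumours alone its log2 fold change was 0.04, and whether these values differ was not tested. In limma-voom with sample weights, Cdc20 and Aurkb were the 2 genes under that p, at 0.0232 and 0.0343 (adjusted p = 0.727 for each). Bub1b, the checkpoint protein BubR1, was at 39.6, 49.5 and 91.2 CPM at the lowest, the median and the highest in induced tumours and at 83.9, 82.8, 48.3, 51.3 and 73.0 CPM in control tumours 1 to 5. Bub1, its partner kinase, averaged 96.1 ± 12.9 CPM in induced and 105 ± 13.9 CPM in control tumours (SD, n = 7 and n = 5). Ttk, the Mps1 kinase that starts the checkpoint signal, averaged 18.8 ± 2.01 CPM in induced and 18.2 ± 1.40 CPM in control tumours. Mad2l1, the Mad2 subunit that binds Cdc20, was lowest in induced 3, induced 4, control 1 and control 2, at 110, 121, 102 and 120 CPM. It was at 132 to 153 CPM in the other 8 tumours. Those 4 tumours were the lowest for 15.1% of all genes tested.

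The 2 kinetochore genes and the long kinesin Kif15 shared their 4 lowest tumours, which were induced 5, induced 7, control 4 and control 5. Kif15 is placed here because of this match, seen in the data. How many of all genes tested share these 4 lowest tumours was not counted. Cenpe, the kinesin that moves chromosomes to the metaphase plate, was at 64.1, 100.2 and 119 CPM at the lowest, the median and the highest in induced tumours, against 97.8, 109, 109, 73.4 and 81.7 CPM in control tumours 1 to 5. Cenpf, an outer kinetochore protein, was also lowest in induced 7, at 105 CPM, and in control 4, at 110 CPM. Its highest values were 174 CPM in induced 3 and 166 CPM in control 2, which are among the tumours that stand apart. Kif15, a kinesin that keeps spindle poles apart, was at 41.9 CPM in induced 7 and 45.5 CPM in control 4, against 47.1 to 73.0 CPM in the other tumours. Over the 12 tumours the Pearson correlation of log2 CPM with Mki67 was 0.84 for Cenpe, 0.80 for Kif15 and 0.78 for Cenpf, and 0.30 for Kif20a. Cenpf also correlated at 0.61 with Kif20a and at 0.74 with Kif2c. With 8620 to 15433 exonic bases, Cenpe, Mki67, Kif15 and Cenpf are among the longest of the 32 genes. The Spearman correlation of exonic length with a gene's deviation, over the 32 genes, was -0.56 in induced 5, -0.46 in induced 7, -0.55 in control 4 and -0.49 in control 5, against -0.02 to 0.27 in the other 8 tumours. The 4 tumours in which Cenpe, Cenpf and Kif15 were lowest were thus those with the most negative length correlation, in which these genes are themselves counted. Over all genes it was -0.28 in induced 5, -0.28 in induced 7, -0.42 in control 4 and -0.22 in control 5. There, control 3 at -0.26 and induced 2 at -0.23 were more negative than control 5, so the order differed from that over the 32 genes. The part of length in this pattern was not tested.

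Among kinesins of the spindle and proteins of the midzone and cleavage furrow, Kif20a and Prc1 had the widest spread of the 32 genes, while Kif23 and Ect2 were among the narrowest. Kif20a, the kinesin that carries passenger proteins to the midzone, had 22.4 CPM at the lowest, 33.5 CPM at the median and 99.2 CPM at the highest in induced tumours. In control tumours 1 to 5 it had 89.2, 92.3, 32.9, 26.7 and 43.3 CPM. Induced 3, induced 4, control 1 and control 2 had 84.4 to 99.2 CPM, against 22.4 to 43.5 CPM in the other 8, with no tumour between. The highest tumour was 4.43 times the lowest, and the log2 fold change between the groups was -0.24 (SE 0.43, 95% interval -1.17 to 0.69). Prc1, the bundler of midzone microtubules, had 42.3, 63.8 and 111 CPM at the lowest, the median and the highest in induced tumours and 113, 96.9, 51.3, 43.7 and 66.5 CPM in control tumours 1 to 5. The same 4 tumours were highest in Prc1, at 94.7 to 113 CPM, against 42.3 to 66.5 CPM in the others. They were picked as the 4 highest in Kif20a and Prc1, so their place in both genes follows from that choice. Kif11, the motor that separates spindle poles, and Kif4, the chromosome kinesin of the midzone, were highest in these 4 tumours, as were 12% of all genes tested. Kif11 had 87.8 to 107 CPM there, against 54.7 to 76.0 CPM in the other 8, and Kif4 had 56.5 to 64.5 CPM, against 35.7 to 50.2 CPM. Anln, the furrow protein anillin, stood at 386 CPM in induced 3, against 206 to 297 CPM in the other tumours. Kif23, a subunit of centralspindlin, was steady at 80.8 ± 8.65 CPM in induced and 84.5 ± 3.70 CPM in control tumours (SD, n = 7 and n = 5), and Ect2, the activator of RhoA at the furrow, at 69.8 ± 5.82 CPM in induced and 67.9 ± 8.02 CPM in control tumours. Kif2c, a microtubule depolymerase, averaged 36.6 ± 4.66 CPM in induced and 38.6 ± 4.19 CPM in control tumours. Nusap1, a spindle bundler, averaged 49.8 ± 6.50 CPM in induced and 50.4 ± 9.47 CPM in control tumours, with its lowest value, 37.9 CPM, in control 1 and its highest, 64.0 CPM, in control 2.

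**Figure D2:**
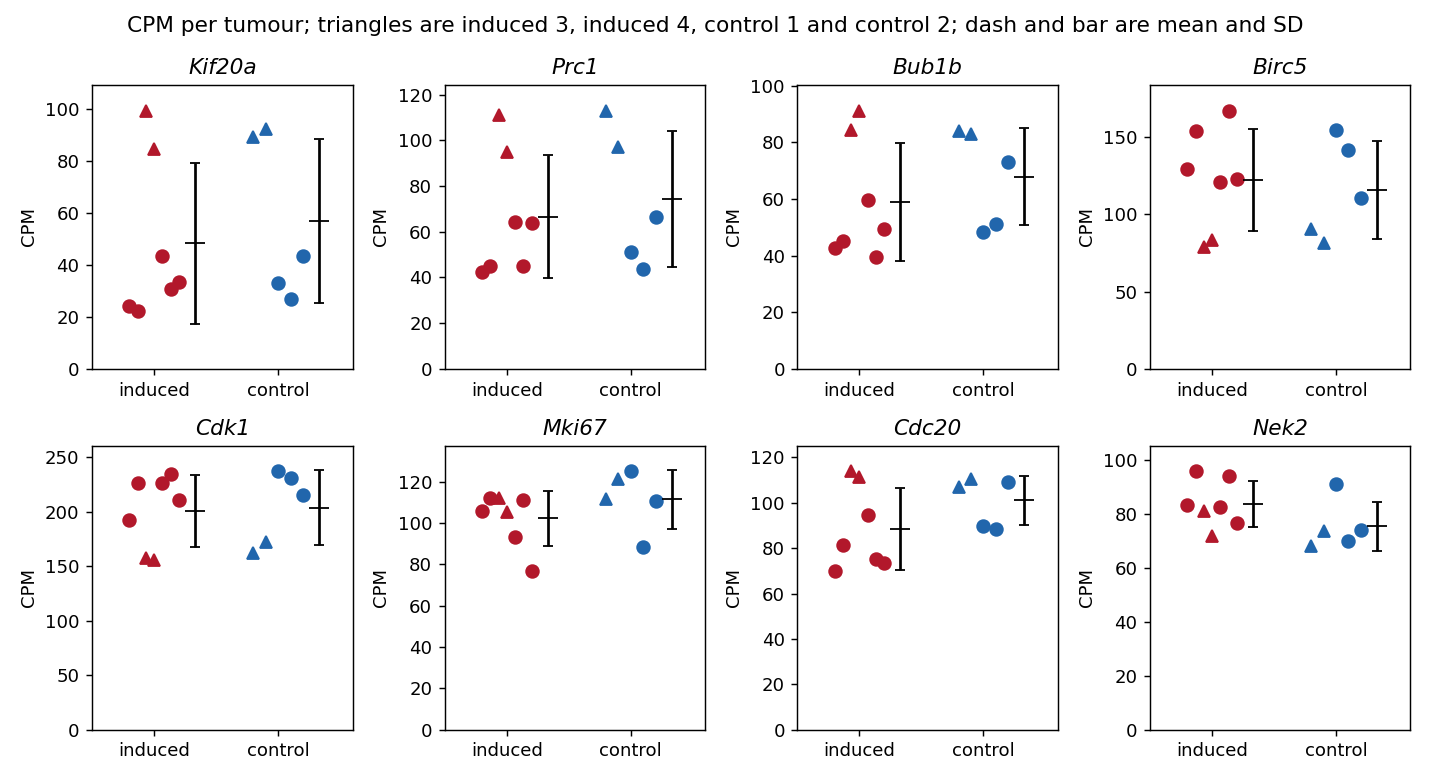
CPM of 8 mitosis genes in every tumour, induced left of control, with triangles for induced 3, induced 4, control 1 and control 2, circles for the other tumours, and a dash and bar for each group's mean and SD. The triangles lie at 84.4 to 99.2 CPM for Kif20a, above all circles, and at the bottom of the range for Birc5 and Cdk1. These 4 tumours were picked as the highest in Kif20a and Prc1, and were the 4 lowest for 15.1% of all genes tested.

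Across tumours the 32 genes did not vary as 1 unit, although their sum was highest in the 4 tumours that stand apart. The sum was 3621 to 3777 CPM in those 4 and 2995 to 3424 CPM in the other 8. It includes Kif20a and Prc1, by which the 4 were picked. The 4 highest tumours were induced 3, induced 4, control 1 and control 2 for 12 genes (37.5%), where this held for 12% of all genes tested. The 12 were Top2a, Ccnb1, Tpx2, Incenp, Bub1, Bub1b, Kif11, Kif2c, Kif4, Kif20a, Prc1 and Anln. These 4 tumours were picked as those with the highest Kif20a and Prc1, which are among the 12. The count of 12, and of genes that correlate with those 2, therefore follows in part from the choice of tumours. The same tumours were the 4 lowest for Cdk1, Aurka, Birc5, Cdca8 and Mad2l1, which is 5 of 32 genes (15.6%), near the 15.1% of all genes. Of 496 pairs of genes, 316 correlated above 0 over the 12 tumours and 180 below, with a median Pearson r of 0.27, against a median of -0.004 over all gene pairs tested. Kif20a correlated at 0.98 with Prc1 and at -0.93 with Birc5. These coefficients describe the same 12 libraries, in which the 4 tumours that stand apart, their stromal markers and their length trend all enter, and the part of each was not tested. Of the 9 genes of the first set with a promoter, 7 held TTTGAA and 7 CCAAT, and of the 5 of the second set, 3 held TTTGAA and 3 CCAAT, so both sets included genes with and without these letters. Induced 1 had the lowest value of the 12 tumours for 10 genes and induced 7 for 7 genes, while induced 3 had the highest for 8 and control 2 for 6.

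**Figure D3:**
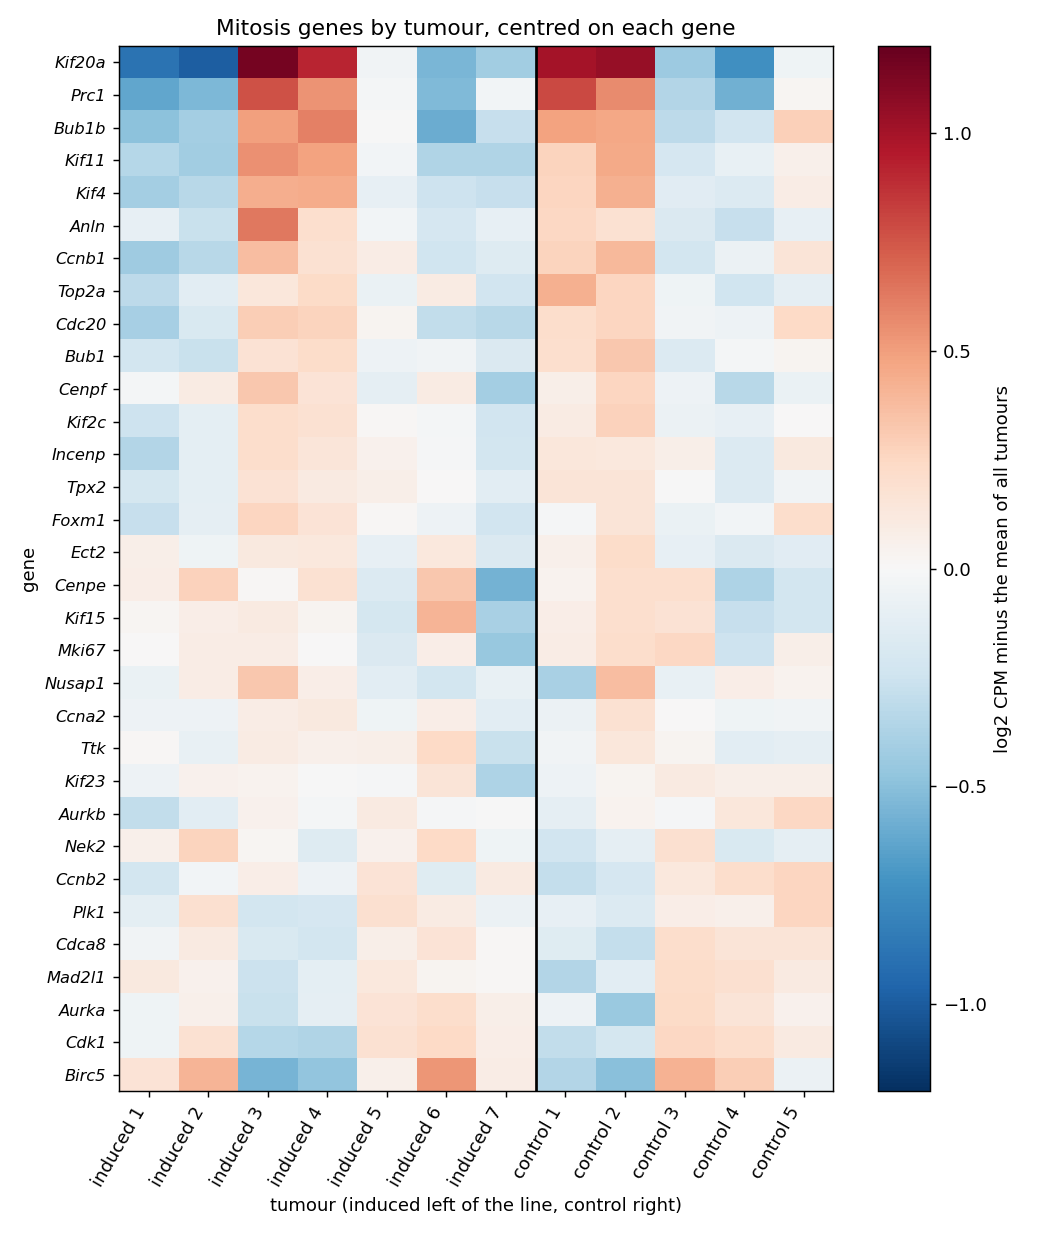
Deviation of each mitosis gene (rows) in each tumour (columns, induced left of the line and control right) from its mean over 12 tumours, in log2 CPM, with genes sorted by their mean in induced 3, induced 4, control 1 and control 2. Kif20a and Prc1 at the top, by which these 4 tumours were picked, are highest in them. Cdk1 and Birc5 at the bottom are lowest in them, as were 15.1% of all genes tested.

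The spread within groups, pooled over both, ranged from an SD of 0.10 in log2 CPM for Ccna2 to 0.84 for Kif20a. Prc1 had 0.56, Bub1b 0.44, Birc5 0.41 and Kif11 0.36. Among all genes tested, 89.8% had a smaller within-group SD than Kif20a and 1.91% a smaller one than Ccna2. The counting of some genes is uncertain, since the labels do not say whether strand was used. Kif20a (chromosome 18, 34624613 to 34633277, plus strand, GRCm38) shares 29.3% of its exonic bases with Cdc23 on the opposite strand, Kif4 15.1% with Pdzd11, Ccna2 12.5% with Exosc9 and Prc1 11.1% with Rccd1. Cdc23 ranged from 42.3 to 59.7 CPM, a narrower range than that of Kif20a, and Rccd1 was at 8.01 to 19.5 CPM with its lowest values in control 1 and induced 3, where Prc1 was highest. Cdc23 was highest in control 1, control 2 and induced 4, at 59.7, 55.9 and 55.3 CPM, where Kif20a was also high. Exosc9 ranged from 46.8 to 84.2 CPM and was highest in the 4 tumours that stand apart. Pdzd11 ranged from 36.2 to 57.2 CPM. The part of shared bases in these counts was not tested. The annotated pseudogene copies Ccnb1-ps and Ccnb2-ps had at most 0.31 and 3.08 CPM.

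Per exonic length, Cdc20 had the highest level of the 32 genes, at 50.2 ± 8.72 CPM per kb (SD, n = 12). Top2a followed at 47.2 ± 7.72, Ccna2 at 44.4 ± 2.93, Tpx2 at 41.7 ± 3.85 and Cdk1 at 40.9 ± 6.51 CPM per kb. The lowest were Ttk at 3.77 ± 0.35, Kif15 at 5.05 ± 0.80 and Prc1 at 8.49 ± 3.28 CPM per kb. Of 31 neighbours in this order, 27 differed by less than the larger SD of the 2 genes. The exceptions were Incenp above Nek2, Cdca8 above Ect2, Prc1 above Kif15 and Kif15 above Ttk. Lengths are the union of all annotated exons, which overstates the length of genes with rarely used exons.

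**Figure D4:**
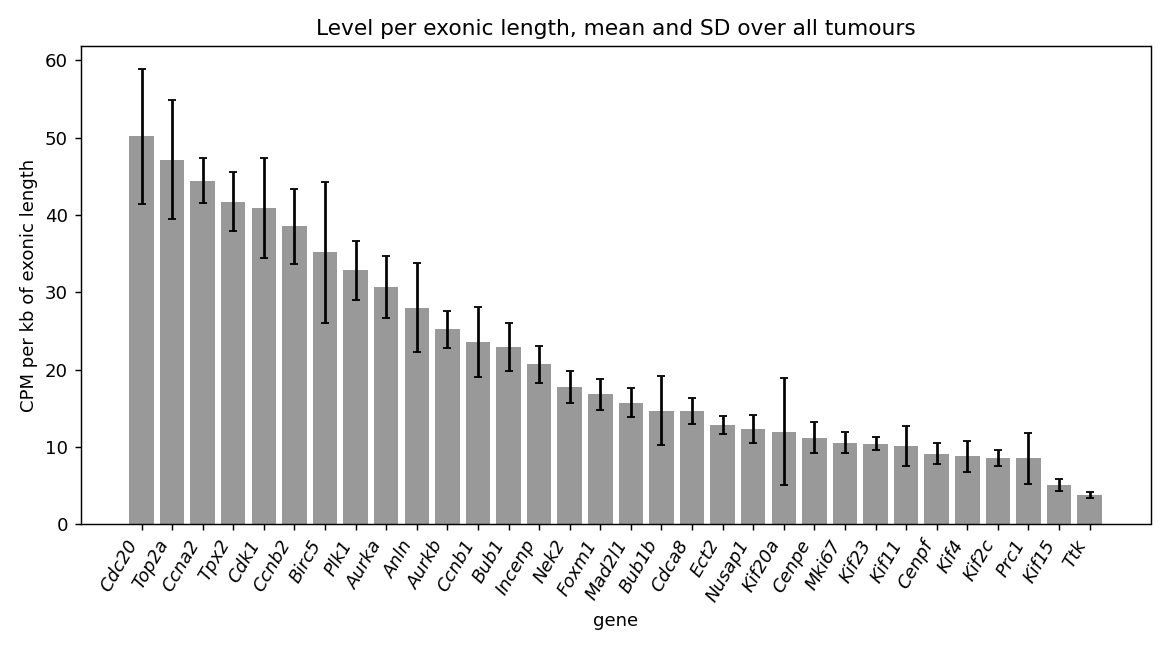
Mean level of each mitosis gene over the 12 tumours, in CPM per kb of exonic length (bars), with the SD over tumours. Cdc20 is highest at 50.2 and Ttk lowest at 3.77 CPM per kb.

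No gene from the other cell cycle lists passed the test between induced and control tumours either. Of 20 other kinetochore and checkpoint genes, 5 were above and 15 below 0 in fold change, and of 25 other spindle and cytokinesis genes 11 and 14. Of 13 condensin and cohesin genes 5 and 8 lay on either side, of 20 G1 and S phase genes 7 and 13, of 12 genes of the MuvB complex, B-Myb and the Rb family 6 and 6, and of 10 tested inhibitors of cyclin-dependent kinases and p53 targets 4 and 6. The medians of these 6 lists were -0.05, -0.02, -0.04, -0.06, 0.01 and -0.02 on the log2 scale. None of the 100 genes tested had an unadjusted p under 0.05. The smallest p was that of Pole, the leading-strand polymerase, at 33.6 ± 7.56 CPM in induced and 41.5 ± 6.89 CPM in control tumours (SD, n = 7 and n = 5; edgeR adjusted p = 0.999886). Ncaph, a condensin subunit needed to compact chromosomes, averaged 34.4 ± 5.16 CPM in induced and 40.3 ± 4.80 CPM in control tumours, and Rad21, the cohesin ring subunit cut at anaphase, 408 ± 36.3 CPM in induced and 364 ± 29.7 CPM in control tumours. Ccne1, cyclin E1 of S phase entry, averaged 30.0 ± 4.04 CPM in induced and 34.2 ± 2.25 CPM in control tumours. Mybl2, which encodes B-Myb, averaged 62.7 ± 10.3 CPM in induced and 70.9 ± 8.08 CPM in control tumours, and Cdkn1b, the inhibitor p27, 140 ± 18.9 CPM in induced and 126 ± 22.4 CPM in control tumours. Each of these groups overlapped in range.

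The genes whose pattern over the 12 tumours was most like the mean of the mitosis genes were Rrm1, Gm44164, Wdr62, Polr1b, Man2a2, Mars2, Kif18b, Gen1, Tubgcp3 and Sppl2b. Rrm1, the large subunit of ribonucleotide reductase, had a Pearson r of 0.95 and a Spearman rho of 0.94 with that mean, and ranged from 139 CPM in induced 1 to 226 CPM in control 2. Wdr62, a spindle pole protein, had 0.93 and 0.96, and Kif18b, a kinesin of astral microtubules, 0.92 and 0.95. Gm44164, Polr1b, Man2a2 and Mars2 ranked above Kif18b, with a Pearson r of 0.93, 0.93, 0.92 and 0.92. The 10 coefficients ran from 0.91 to 0.95, over 12 tumours, and were chosen as the highest among genes with a mean log2 CPM over 1. Each of the 10 genes was highest in induced 3, induced 4 or control 2, which are among the tumours that stand apart and where that mean was also high. The part of these tumours in the likeness was not tested.

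In the authors' deposited table, all 32 genes had the same sign of fold change as in the edgeR fit, which uses the same counts. The authors' log2 fold changes of these genes equalled those of the DESeq2 fit here after rounding, such as -0.1286 for Mki67 and 0.146 for Nek2. The shared signs are thus not separate support. The lowest unadjusted p of a mitosis gene in the authors' deposited table was 0.171, for Nek2, and the lowest adjusted p was 0.993963. There, 2.54% of the genes with a p had an unadjusted p under 0.05.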

How the data were processed

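Bulk RNA-seq was measured in 12 tumours, 7 induced and 5 control, grouped by title. The growth and treatment text of the labels describes fat cell differentiation of another line and was not used. Per the labels' protocols, 1.3 ug of column-purified total RNA entered a SMARTER mRNA-seq preparation, and the submitters' processing notes give GRCm38 (mm10). Aligner, counter, annotation and strand use: not given in the sources used here. Deposited values are raw counts for each Ensembl gene and rlog values on the log2 scale, per the file headers; only the counts were tested. The authors' deposited table also holds p-values and log2 changes, from a test that is not named, and a signed fold score that was not used.

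The count model was fitted in R 4.3.3 using edgeR 4.0.16. filterByExpr with a minimum count of 10 kept 15199 genes and removed 9917. TMM factors and the robust quasi-likelihood test were used, and the threshold was 0.05 on p-values adjusted by Benjamini-Hochberg over every gene tested. Intervals are 95% intervals from the same fit. Levels are CPM with TMM factors, and log2 CPM has a prior count of 2. Positions and exonic lengths came from GENCODE M21 on GRCm38. Promoters came from RefSeq (GRCm38.p6). No 2 libraries of a group agreed within sampling noise (chi-square per gene 13.0 to 220.1). Nothing in the labels says how tumours were shared between animals, so p-values measure the spread between these samples. In simulated counts, 58 of 100 genes changed 2-fold and 85 of 100 changed 4-fold were called, as were 10 of 14747 unchanged genes. Alternatives were RLE and upper-quartile factors, no filter, no robust estimation, DESeq2 1.42.0, limma-voom (limma 3.58.1), a replicate block and leaving out each tumour. Fits without the 4 tumours that stand apart, of these 4 alone, and with a term for them were added after seeing the data. The 4 were picked as the tumours with the highest Kif20a and Prc1. The genes and lists were chosen with earlier results of these data known. All 32 genes were named. Of each other list up to 4 genes with the smallest p could be named.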

Additional observations from a re-analysis of the deposited data

Results flagged for a closer look

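In 64 groups of values examined (32 genes in each of 2 groups), 2 held a tumour far from the others of its group, and chance flags about 1 in 20 groups. Kif23 in induced 7 was at 63.3 CPM, the lowest of the 7 induced tumours, which otherwise had 78.6 to 91.1 CPM. Incenp in control 4 was at 79.7 CPM, the lowest of the 5 control tumours, which otherwise had 93.3 to 98.0 CPM.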

How the results depend on the processing

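Under all 22 alternative fits, 0 genes and 0 of the 32 mitosis genes passed the threshold. The number of mitosis genes below 0 was 23 or 24 in the fits of all tumours or without the 4 that stand apart, 20 to 26 when 1 tumour was left out, and 13 in the fit of induced 3, induced 4, control 1 and control 2 alone. The median log2 fold change ranged from -0.09 to -0.04, from -0.08 to -0.03, and was 0.03 in those 4 tumours. Of 704 alternative fold changes 63 changed sign, in 24 genes. Aurka was -0.0036 in limma-voom, -0.0303 with the replicate block, -0.0624 without the 4 tumours and -0.0185 with a term for them. Ccna2 was 0.0059 with the replicate block and 0.0092 with the term, Birc5 -0.0354 and -0.0095, and Nusap1 0.053 with the replicate block. In the 4 tumours alone, the values with the other sign were 0.0392 for Ccna2, 0.246 for Ccnb2, 0.1335 for Foxm1, 0.0375 for Aurkb, -0.0948 for Birc5, 0.0415 for Incenp, 0.0022 for Cdca8, 0.0693 for Bub1b, 0.0459 for Mad2l1, 0.0399 for Cdc20, -0.0248 for Cenpe, 0.1441 for Kif11, -0.0803 for Kif15, 0.1578 for Nusap1, 0.0915 for Kif4, 0.0064 for Kif20a, 0.0238 for Kif23 and -0.0276 for Ect2. The cause was not tested. Leaving out 1 tumour gave -0.0296 to 0.0327 for Ccna2, -0.1248 to 0.0164 for Ccnb2, -0.1007 to 0.0303 for Cdk1, -0.1029 to 0.0176 for Plk1, -0.0917 to 0.0618 for Aurka, -0.037 to 0.1911 for Birc5, -0.1112 to 0.0203 for Mad2l1, -0.0269 to 0.1399 for Cenpe, -0.0242 to 0.1201 for Cenpf, -0.0542 to 0.0802 for Kif15, -0.1111 to 0.074 for Nusap1, -0.3266 to 0.0417 for Prc1, -0.0062 to 0.0936 for Ect2 and -0.0669 to 0.1263 for Anln. Without control 3, Nek2 had a log2 fold change of 0.21 (edgeR adjusted p = 0.927). The labels do not say that replicate numbers pair the tumours. Same-numbered tumours correlated from -0.60 to 0.37, and no control tumour correlated best with its own number. These correlations cannot exclude a pairing, since the 4 tumours that stand apart enter them too. The replicate block gave 0 genes past the threshold and 108 at an unadjusted p under 0.05, against 324 without it. The 4 tumours with the highest mean level over the 32 genes were induced 3, induced 4, control 1 and control 2. They were the same 4 under the other prior count and RLE factors. Without length, 6 of the 10 highest genes per length stayed among the 10 highest.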
